A study of Mus musculus with 6 samples.

Results

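The S100 family was followed through the 8 genes S100a1, S100a4, S100a6, S100a8, S100a9, S100a10, S100a11 and S100a13, taken as every array probe that the platform annotation assigns to one of these symbols. Each gene had a single probe, so the set held 8 of the 45281 probes on the array, and all 8 passed the filter on dim probes. S100 proteins are small calcium-binding proteins that mostly act as dimers and change shape on binding calcium, which lets them dock onto annexins, myosins, ion channels and other partners. S100a8 and S100a9 encode the partners of calprotectin, which fills the cytosol of neutrophils and is also made by monocytes, binds zinc and manganese, and is released at sites of injury, where it signals through Toll-like receptors and the receptor Ager. S100a4, S100a6, S100a10 and S100a11 are carried by monocytes and by many mesenchymal cells, and S100a1 is best known as a calcium-handling protein of heart muscle.

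The RNA came from myeloid cells of ICR mice, an outbred strain, sorted from the heart as CD11b-positive and Ly6G-negative, a gate that takes monocytes and macrophages and is meant to exclude neutrophils. The animals had the left anterior descending coronary artery tied at day 14 after birth (P14) or at day 1 (P1), and hearts were taken 3 days later, with males and females mixed and no uninjured group in either age. Each age had 3 Illumina mouse expression arrays, and the values are background-containing intensities, normalized between arrays, on which 112.6 was the most frequent value and 127.6 the floor for a measurable probe. The labels do not say whether the arrays came from separate animals or pools, so the p-values speak for the spread among these arrays alone and that spread may be technical. In sorted bulk RNA a smaller share of a cell type and less RNA per cell cannot be told apart. Age at infarction and age at harvest go together, so the comparison asks how the injured heart's myeloid cells differed between P14 and P1.

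Differences are log2 intensities of P14 minus P1 from limma's moderated test, with adjusted p by Benjamini-Hochberg over 10236 genes. Across all of them 20.6% passed an adjusted p of 0.05, 9.88% higher and 10.7% lower in P14, and the median log2 fold change was -0.0089. The count of 2104 genes fell to 1244 without P14 replicate 1, to 1209 without P14 replicate 2 and to 1043 without P1 replicate 3. The gate's macrophage genes were measured at both ages. Csf1r, the receptor for the macrophage growth factor, averaged 2116 in P14 and 3755 in P1 and was itself called lower in P14 (log2 fold change -0.82, adjusted p = 0.00225). The lipopolysaccharide co-receptor Cd14 averaged 23131 in P14 and 23955 in P1 (adjusted p = 0.718). On the second principal component P14 replicate 3 (-15.4) lay apart from P14 replicates 1 and 2 (8.16 and 5.59).

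The promoter windows of the family's largest movers are shown first, because S100a8 and S100a9 fell together while S100a4, from the same stretch of chromosome 3, rose, and S100a1 shares its start region with a member that did not pass. RefSeq (GRCm38.p6) windows of 250 bases before to 50 after the annotated start were found for 7 members and not for S100a10. Capitals mark the letters TATAAA, the box that places many transcription starts, TTNNGNAA (the site read by C/EBP factors), GAGGAA (the core read by PU.1) and TGANTCA (AP-1), searched on both strands.
S100a8, chr3:90668821-90669120, plus strand: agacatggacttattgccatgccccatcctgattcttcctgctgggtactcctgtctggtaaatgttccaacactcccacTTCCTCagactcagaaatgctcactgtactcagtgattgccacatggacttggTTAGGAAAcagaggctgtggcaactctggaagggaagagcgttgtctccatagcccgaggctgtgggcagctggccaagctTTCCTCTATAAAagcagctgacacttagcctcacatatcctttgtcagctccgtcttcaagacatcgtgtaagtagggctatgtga
S100a9, chr3:90695672-90695971, minus strand: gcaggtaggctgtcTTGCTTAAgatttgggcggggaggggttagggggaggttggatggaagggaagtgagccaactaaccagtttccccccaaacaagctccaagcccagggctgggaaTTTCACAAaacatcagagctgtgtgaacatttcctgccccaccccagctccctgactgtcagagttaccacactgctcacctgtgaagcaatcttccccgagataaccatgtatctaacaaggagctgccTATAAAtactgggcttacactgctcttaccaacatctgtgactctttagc
S100a4, chr3:90603520-90603819, plus strand: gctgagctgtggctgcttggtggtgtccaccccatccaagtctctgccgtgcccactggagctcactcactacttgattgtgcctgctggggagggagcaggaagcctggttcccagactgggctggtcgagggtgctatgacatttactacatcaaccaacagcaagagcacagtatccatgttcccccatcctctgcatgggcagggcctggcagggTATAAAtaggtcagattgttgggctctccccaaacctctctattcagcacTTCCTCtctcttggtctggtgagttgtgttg
S100a1, chr3:90514281-90514580, minus strand: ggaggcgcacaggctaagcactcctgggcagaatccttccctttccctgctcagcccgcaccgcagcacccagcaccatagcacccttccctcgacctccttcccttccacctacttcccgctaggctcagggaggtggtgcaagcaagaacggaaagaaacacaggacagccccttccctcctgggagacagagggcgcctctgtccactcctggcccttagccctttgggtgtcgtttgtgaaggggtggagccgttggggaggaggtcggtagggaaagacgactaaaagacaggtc

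Both calprotectin genes held TATAAA and at least 1 match to TTNNGNAA in these windows. S100a8 had its TATAAA 30 bases before the annotated start, preceded without a gap by a reverse-strand match to GAGGAA, written TTCCTC, that shares 0 bases with it, while the TATAAA of S100a9 began at the annotated start itself. S100a4 also held TATAAA, 31 bases before its start, with 1 match to GAGGAA and none to TTNNGNAA. S100a11 held 2 matches to TGANTCA and 1 to GAGGAA, and the windows of S100a1, S100a6 and S100a13 held none of the 4 motifs. Of 32851 promoter windows of the same length, 13.6% held TATAAA, 40.7% TTNNGNAA, 28.3% GAGGAA and 7.81% TGANTCA. The matches are a description of letters, not of bound sites.

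Of the 8 members, 5 passed the threshold: S100a9, S100a8 and S100a1 were lower in P14, and S100a10 and S100a4 were higher. That is 3 lower against a background of 10.7% of genes, and 2 higher against 9.88%. The same 5 were the members whose P14 and P1 arrays did not overlap, as was true of 39.1% of all genes tested, 18.2% with P14 above and 20.9% with P14 below P1. S100a6, S100a11 and S100a13 did not pass.

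**Figure D1:**
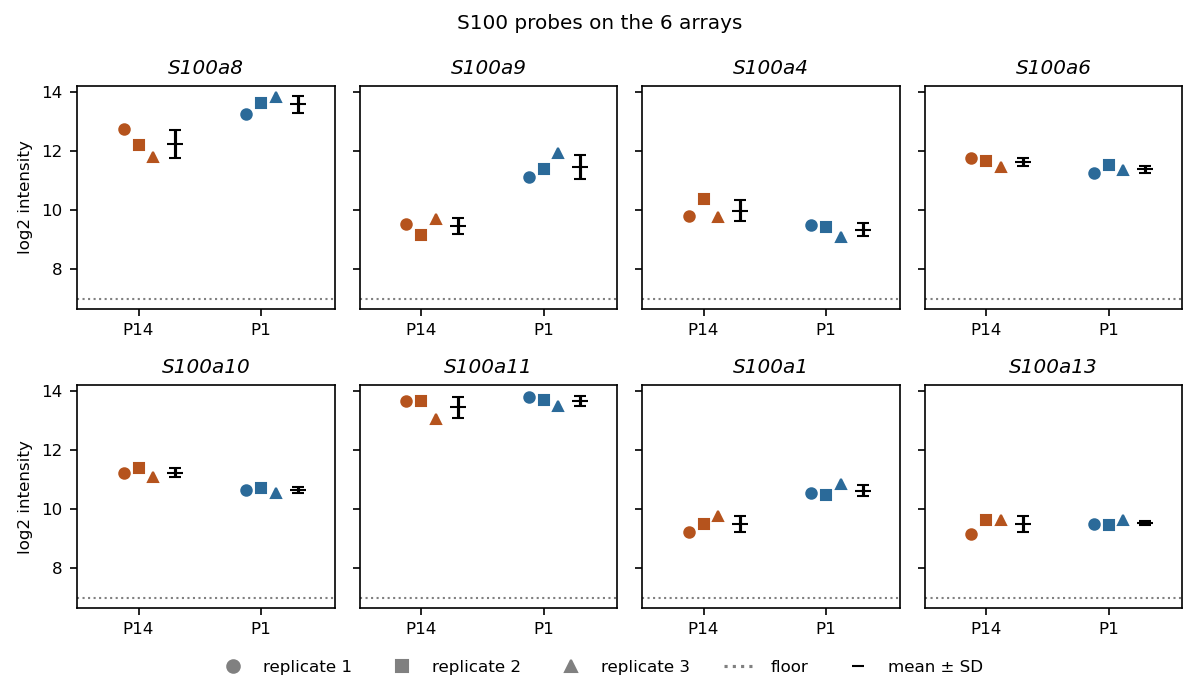
Log2 intensity (vertical axes) of the 8 S100 probes on each of the 3 P14 and 3 P1 arrays, with marker shapes for replicates, black bars for the mean and SD of each group and a dotted line at the floor, an intensity of 127.6. All probes lie above the floor on every array, and S100a9 shows the widest gap, with P14 arrays averaging 9.45 and P1 arrays 11.46.

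S100a9 encodes the larger calprotectin partner and fell most. Its intensity was 733, 570.1 and 816 on the P14 arrays and 2199.95, 2649 and 3837 on the P1 arrays. Every P14 array lay well below every P1 array, and the highest was P1 replicate 3. S100a9 averaged 706 ± 125 in P14 and 2895 ± 846 in P1 (SD, n = 3 each), 4.03-fold lower in P14 (log2 fold change -2.01 ± 0.208, SE, limma adjusted p = 0.00164), with a 95% interval of 2.90- to 5.62-fold. By size of change it ranked 7 among the 10236 genes.

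S100a8, which encodes the other calprotectin partner and attracts myeloid cells in mice, had intensities of 6801, 4703 and 3545 on the P14 arrays and 9789, 12608 and 14401 on the P1 arrays. The ages did not overlap, but P14 replicate 1 came closest to the P1 arrays. S100a8 averaged 5016 ± 1651 in P14 and 12266 ± 2325 in P1 (SD, n = 3 each), 2.50-fold lower in P14 (log2 fold change -1.32 ± 0.232, SE, limma adjusted p = 0.00837; 95% interval 1.73- to 3.62-fold), and ranked 34. Both calls were kept without any 1 array.

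The calprotectin genes did not move in parallel on every array. The deviation of S100a9 from its own 6-array mean, less that of S100a8, was -0.77, -0.60 and 0.33 on P14 replicates 1, 2 and 3, and 0.29, 0.20 and 0.54 on P1 replicates 1, 2 and 3 (log2). P14 replicate 3 thus lay among the P1 arrays in this balance: it had the lowest S100a8 of the series and the highest S100a9 of its own group. Within P1, replicate 3 was highest and replicate 1 lowest for both genes.

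Of 16 listed neutrophil and granule markers 13 were tested, 9 of them lower and 1 higher in P14, beside 10.7% of all genes lower and 9.88% higher. Of these 13, Ngp, Mpo, Ctsg and Fcnb were above the floor on P1 arrays only, so they entered the test through the age in which they were high; 3 of the 9 lower calls are theirs, and the count is given as a description. Mpo, the myeloperoxidase of primary granules, stayed below the floor on all P14 arrays (119 to 125) and read 317 to 346 on P1 arrays. Camp, the cathelicidin of secondary granules, was at 119, 124 and 146 on P14 replicates 1, 2 and 3, and at 418, 208 and 673 on P1 replicates 1, 2 and 3, above the floor on 1 P14 array and on all P1 arrays. Camp thus also needed P1 arrays to reach the filter's minimum of 3 arrays. So did Elane, above the floor on 2 P14 arrays and on all P1 arrays. Camp and Elane are both among the 9 lower calls. The granule gene Ltf, lactoferrin, averaged 185 in P14 and 544 in P1 (limma adjusted p = 0.0412).

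Not all neutrophil genes were on the side of calprotectin. Retnlg, a resistin-like gene of myeloid cells, averaged 3699 in P14 and 1210 in P1 (log2 fold change 1.63 ± 0.154, SE, adjusted p = 0.00143), the opposite direction. The chemokine receptor Cxcr2, the collagenase Mmp8 and the integrin gene Itgb2l, all genes of mature neutrophils, were below the floor on every array. Csf3r (372 in P14 and 540 in P1, limma adjusted p = 0.0104) and Mmp9 (375 in P14 and 736 in P1, limma adjusted p = 0.0102) were lower in P14. Both were above the floor on every array, as was Retnlg. The summed intensity of the 16 markers, in which Retnlg weighs heavily, overlapped, at 6009 to 6740 in P14 and 5373 to 6878 in P1. The mean log2 deviation of the 13 tested markers was -0.35 to -0.25 in P14 and 0.31, 0.089 and 0.52 on P1 replicates 1, 2 and 3. It was lowest within P1 on replicate 2. The part of neutrophil-lineage cells in the calprotectin difference was not tested.

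**Figure D2:**
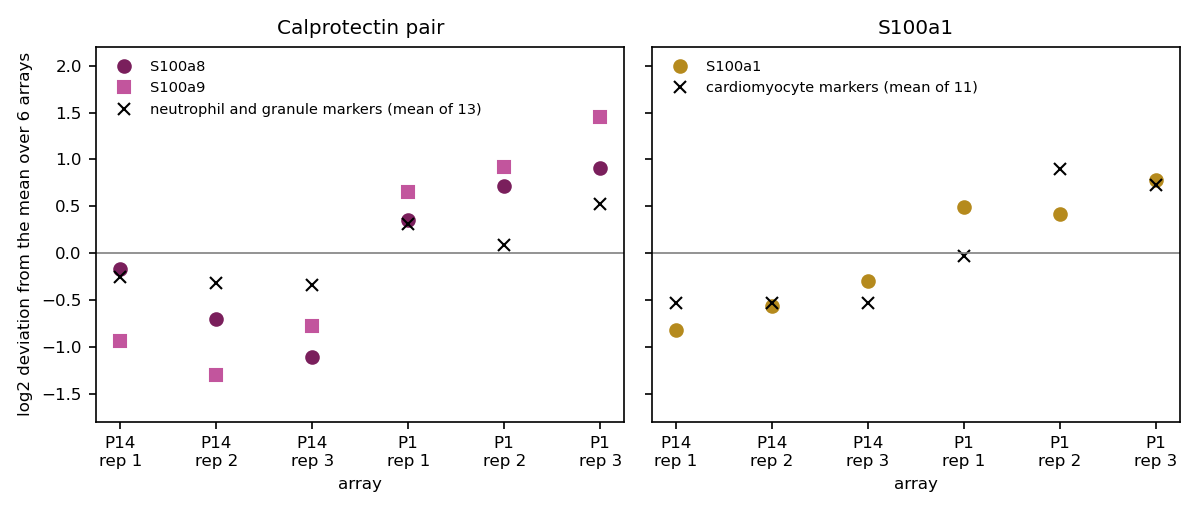
Log2 deviation from the mean over 6 arrays (vertical axis) on each array for S100a8 and S100a9 beside the mean of 13 neutrophil and granule markers (left), and for S100a1 beside the mean of 11 cardiomyocyte markers (right). On P1 replicates 1, 2 and 3 the cardiomyocyte markers stand at -0.028, 0.90 and 0.72, and S100a1 at 0.49, 0.42 and 0.78. Both are negative on every P14 array.

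S100a4 encodes a protein that binds the nonmuscle myosin heavy chain and is made by migrating monocytes, macrophages and fibroblasts. Its intensity was 889, 1325 and 857 on the P14 arrays and 711, 683 and 540.1 on the P1 arrays. The ages did not overlap, though P14 replicate 2 stood far above the other two. S100a4 averaged 1024 ± 261 in P14 and 645 ± 91.7 in P1 (SD, n = 3 each), 1.57-fold higher in P14 (log2 fold change 0.65 ± 0.177, SE, limma adjusted p = 0.0371). The call was lost without P14 replicate 1 (adjusted p = 0.0571), P14 replicate 2 (0.0664), P1 replicate 2 (0.0689) or P1 replicate 3 (0.115), and with no filter on dim probes (0.0780).

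S100a10, which does not bind calcium and instead holds annexin A2 and plasminogen at the cell surface, was higher in P14 and kept its call without any 1 array. It read 2389, 2667 and 2182 on the P14 arrays and 1612, 1692 and 1485 on the P1 arrays. Replicates lay close together within each age and the ages were clearly apart. S100a10 averaged 2412 ± 243 in P14 and 1596 ± 104 in P1 (SD, n = 3 each), 1.51-fold higher in P14 (log2 fold change 0.59 ± 0.0933, SE, limma adjusted p = 0.00581; 95% interval 1.30- to 1.75-fold). The profile of S100a10 over the 6 arrays lay nearer to that of S100a4 than in any other pair of members (Euclidean distance 0.376 between centred log2 profiles), whereas S100a4 and S100a9 lay farthest apart (3.48).

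S100a6, calcyclin, a partner of annexins and of ubiquitin ligase adaptors, read 3431, 3192 and 2810.4 on the P14 arrays and 2440.2, 2901 and 2592 on the P1 arrays. P14 replicate 3 was below P1 replicate 2, so the ages overlapped. The log2 fold change of 0.25 ± 0.0995 (SE, n = 3 each) had an adjusted p of 0.115 by limma's test, and 0.0497 when arrays were weighted by their quality.

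S100a11, a partner of annexin A1 in membrane repair, did not pass either and had intensities of 12860.2, 12801 and 8389 on the P14 arrays and 14202, 13220.4 and 11438 on the P1 arrays. P14 replicate 3 stood apart from the other P14 arrays. The log2 fold change was -0.21 ± 0.169 (SE, n = 3 each; limma adjusted p = 0.426), with a 95% interval of -0.60 to 0.18, and -0.0080 without P14 replicate 3. RefSeq lists a pseudogene of S100a11, and whether the probe also reads it was not tested.

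Of 11 tested monocyte markers of the 14 listed, 6 were higher and 1 lower in P14, beside 9.88% of all genes higher and 10.7% lower. The median log2 fold change was 0.47. The largest rises were those of Ly6c1 (1390.3 in P14 and 494 in P1, adjusted p = 0.0109), which may also read its near-identical copy, and the chitinase-like gene Chil3 (2612 in P14 and 1148 in P1, adjusted p = 0.0325). Of the 11, 9 had positive changes and 2 negative. The negative ones were F13a1 (5599 in P14 and 8043 in P1, adjusted p = 0.0152) and Fn1 (6121 in P14 and 8779 in P1, adjusted p = 0.0732). P14 replicates 1, 2 and 3 had mean log2 deviations of 0.52, 0.33 and -0.12 for the 11 tested markers, against -0.34 to -0.11 on the P1 arrays. The summed intensity of the monocyte markers, in which F13a1 and Fn1 weigh heavily, was 17415 to 28885 in P14 and 22955 to 25139 in P1. Of the 12 with a probe, 0 were below the floor on every array. P14 replicate 3 was the lowest of its group both for these markers and for S100a4, S100a6, S100a10 and S100a11. Of 9 fibroblast markers tested 3 were lower and 0 higher in P14, beside 10.7% of all genes lower, and the other 6 did not pass. The lower ones included Col1a1 collagen (170.4 in P14 and 489 in P1, adjusted p = 0.00415), and Postn was below the floor on every array. Tcf21, also called lower, was above the floor on 2 P14 arrays and on all P1 arrays, so it needed P1 arrays to be tested. The fibroblast markers summed to 3397 to 3838 in P14 and 3760.3 to 6137 in P1. Resident macrophage markers were lower in 4 of 13 tested and higher in 0, beside 10.7% of all genes lower and 9.88% higher. The largest change was that of the fractalkine receptor Cx3cr1 (1232 in P14 and 3678 in P1, adjusted p = 0.00259). Of the 13, 11 had negative changes and 2 positive, 1 of them Adgre1 (4737 in P14 and 3707 in P1, log2 fold change 0.34, adjusted p = 0.137). The resident macrophage markers summed to 30362 to 43055 in P14 and 49201 to 52409 in P1. The part of these cell types in the results on S100a4 and S100a10 was not tested.

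Set side by side, the calprotectin pair was lower on every P14 array than on any P1 array, and the mean of the monocyte-associated members overlapped between the ages. The mean log2 deviation of S100a8 and S100a9 was -0.55, -1.001 and -0.95 on P14 replicates 1, 2 and 3, and 0.50, 0.82 and 1.18 on P1 replicates 1, 2 and 3. That of S100a4, S100a6, S100a10 and S100a11 was 0.20, 0.35 and -0.073 on the P14 arrays and -0.11, -0.072 and -0.30 on the P1 arrays. The overlap came through P14 replicate 3.

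The pair minus the monocyte-associated members averaged -0.99 ± 0.319 in P14 and 0.99 ± 0.442 in P1 (SD, n = 3 each), a difference of -1.99 on the log2 scale. It was made of a change of -1.67 in the pair and 0.32 in the monocyte-associated members. Without single arrays it ranged from -2.18 to -1.74. The value is a description of chosen members and carries no test.

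**Figure D3:**
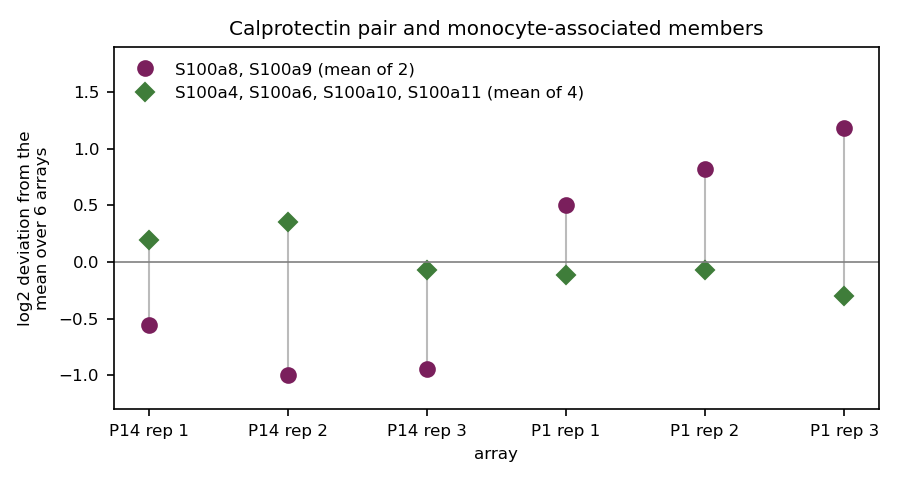
Mean log2 deviation from the 6-array mean (vertical axis) of the calprotectin pair (circles) and of the 4 monocyte-associated members (diamonds) on each array. The circles lie below the diamonds on the 3 P14 arrays and above them on the 3 P1 arrays.

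S100a1, which in cardiomyocytes tunes the ryanodine receptor and the calcium pump of the sarcoplasmic reticulum, was lower in P14. Its intensity was 603, 722 and 871 on the P14 arrays and 1498, 1427 and 1830.0 on the P1 arrays. The ages did not overlap. S100a1 averaged 732 ± 134 in P14 and 1585 ± 215 in P1 (SD, n = 3 each), 2.18-fold lower in P14 (log2 fold change -1.12 ± 0.146, SE, limma adjusted p = 0.00308; 95% interval 1.72- to 2.75-fold), and ranked 62 by size of change.

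Heart muscle transcripts were also lower in P14. Of 11 tested cardiomyocyte markers 7 were lower and 0 higher, beside 10.7% of all genes lower and 9.88% higher, with a median log2 fold change of -1.17. Tnni3, Ttn and Ckm were above the floor on 1 P14 array and on all P1 arrays, so they needed P1 arrays to be tested. Tnni3 is 1 of the 7 lower calls, and Ttn and Ckm did not pass. Myl2, the ventricular myosin light chain, averaged 833 in P14 and 4593 in P1 (adjusted p = 0.00245), and Myh7 was below the floor on every array. The summed intensity of the 12 markers was 3452 to 3681 in P14 and 6576, 14253 and 13070.1 on P1 replicates 1, 2 and 3. On the same 3 P1 arrays S100a1 read 1498, 1427 and 1830.0. The part of muscle RNA in its difference was not tested.

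S100a13, a partner in the export of the growth factor Fgf1 and of Il1a, which leave cells without a signal peptide, read 575, 794 and 798 on the P14 arrays and 728, 712 and 784 on the P1 arrays. The ages overlapped. The log2 fold change was -0.05 ± 0.130 (SE, n = 3 each; limma adjusted p = 0.820), with a 95% interval of -0.35 to 0.25. S100a13 starts head to head with S100a1: their promoter windows lie on opposite strands and share 204 bases, yet S100a1 passed and S100a13 did not, a contrast whose difference was not itself tested.

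**Figure D4:**
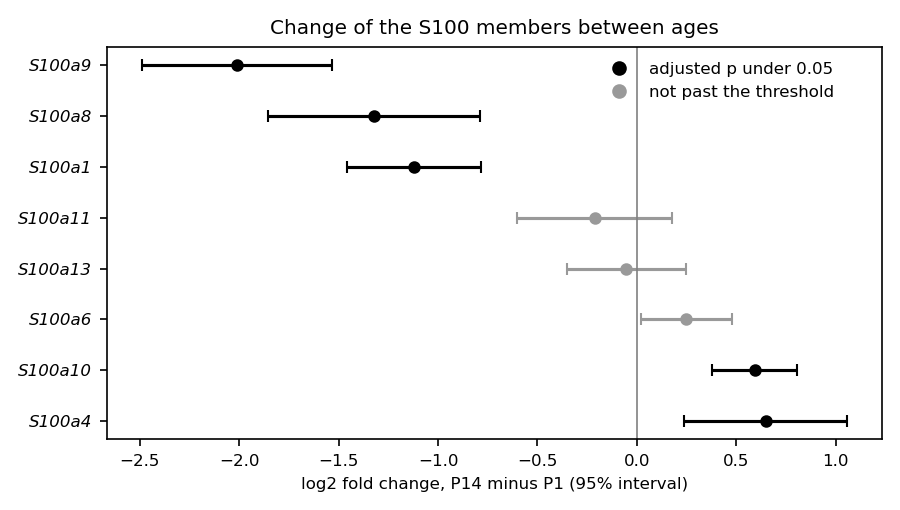
Log2 fold change, P14 minus P1 (horizontal axis), with 95% intervals for the 8 members, black where the adjusted p was under 0.05 and grey elsewhere. S100a9 (-2.01), S100a8 (-1.32) and S100a1 (-1.12) lie below 0, and S100a10 (0.59) and S100a4 (0.65) above it.

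Along chromosome 3 the members fall into a run from S100a1 to S100a9 and, beyond a block of epidermal genes, the neighbours S100a11 and S100a10. Members that passed in opposite directions lie in the same run: S100a4, higher in P14, stands between S100a1 and the calprotectin pair, which were lower. S100a10, higher in P14, neighbours S100a11, which did not pass. Of 55 other protein-coding genes between S100a1 and S100a10, 44 had a probe and 4 were tested, of which the cornified-envelope gene Sprr2a1 was higher in P14 (0.36 ± 0.0877, SE, limma adjusted p = 0.0251). With 10 flanking genes on each side, 16 non-S100 genes were tested, 2 higher and 1 lower, a share of 18.8% beside 20.6% of all genes. The nearest tested gene before S100a1, Chtop, changed by 0.11 on the log2 scale with an adjusted p of 0.394, short of the threshold.

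**Figure D5:**
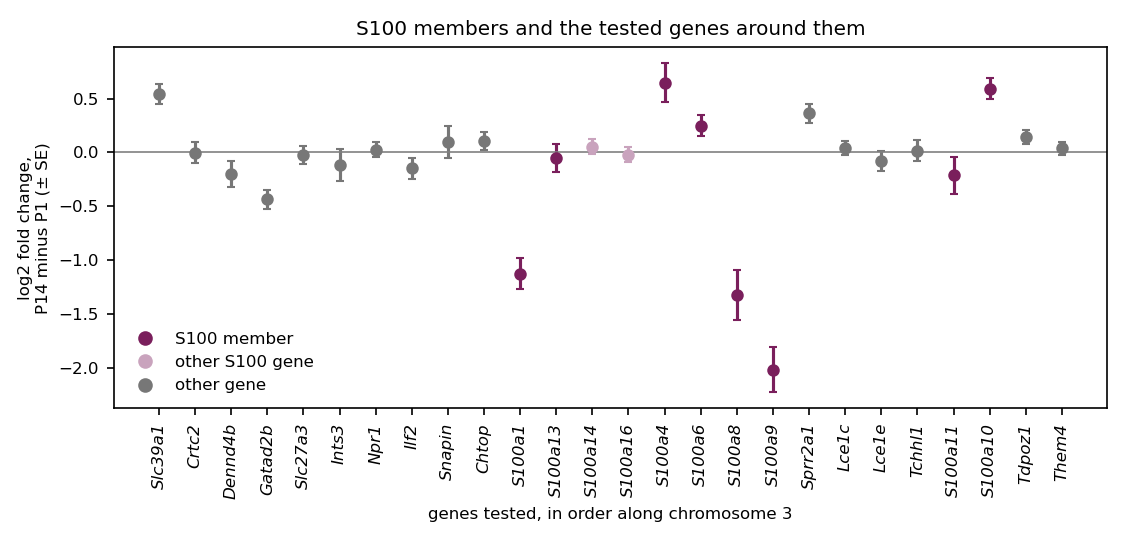
Log2 fold change, P14 minus P1 (vertical axis, bars are SE), of the S100 genes and of the other genes tested around them, placed by order along chromosome 3 and not to distance. The 10 genes from Slc39a1 to Chtop span -0.43 to 0.54, whereas the members span -2.01 to 0.65.

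The rest of the family gave little signal. Of 9 further S100 genes listed, 8 had a probe and 2 were tested. The kept probe of S100a14 read 125 to 137 and S100a16 read 132 to 143 over all arrays, close to the floor, with log2 fold changes of 0.05 (adjusted p = 0.639) and -0.02 (adjusted p = 0.871). S100a3, S100a5, S100a7a, S100b and S100g were below the floor on every array, and S100z exceeded it on 1 array.

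Among listed intracellular, cell-surface and secreted binding partners of S100 proteins, 16 of 19 were tested, with 3 higher and 2 lower in P14, a share of 31.2% beside 20.6% of all genes, and a median log2 fold change of 0.06. The higher ones were Plaur, the urokinase receptor that works beside plasminogen (1909.8 in P14 and 1355 in P1, log2 fold change 0.49 ± 0.0946, SE, adjusted p = 0.0117), Sugt1, a chaperone partner of S100a6 (0.44, adjusted p = 0.0355), and Anxa1, the partner of S100a11 (0.30, adjusted p = 0.0454). Sugt1 read 167 to 219 on the P14 arrays and 130 to 152 on the P1 arrays, close to the floor in P1. The lower ones were Il1a (-0.53, adjusted p = 0.0227) and the annexin Anxa6 (-0.37, adjusted p = 0.0243). Anxa2, which forms a complex with S100a10, read 18736 to 19292 in P14 and 15972 to 17253 in P1, a log2 fold change of 0.21 (adjusted p = 0.0579).

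Of 9 receptors and signalling partners 8 were tested and 1 passed, Myd88, the adaptor of Toll-like receptors (5542 in P14 and 4237 in P1, log2 fold change 0.39 ± 0.0687, SE, limma adjusted p = 0.00873), a share of 12.5% beside 20.6% of all genes, and the list's median was -0.06. The calprotectin receptors Tlr4 and Ager did not pass: for Tlr4 the log2 fold change was 0.19 (adjusted p = 0.195) and Ager, at 137 in P14 and 143 in P1, lay near the floor. Bsg, also on the list, had a probe but was not tested. Of 8 transcription factors known to act on S100a8 and S100a9, 2 were higher in P14 and 0 lower, a share of 25.0% beside 20.6% of all genes, with a median of 0.10. These were Cebpe, a factor of granulocyte maturation (359 in P14 and 263 in P1, log2 fold change 0.45 ± 0.0926, SE, adjusted p = 0.0143), and Cebpd (0.34, adjusted p = 0.0323). Of the 8, 5 had positive changes and 3 negative. The negative ones, none past the threshold, included Spi1, the gene of PU.1 (-0.27, adjusted p = 0.0554), and Cebpb (-0.20, adjusted p = 0.0679).

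By Euclidean distance between log2 profiles centred over the 6 arrays, the 5 genes outside the family nearest to S100a9 were Gstp2, a glutathione transferase (0.662), Cstdc5, a stefin-like gene (0.732), Slc40a1, the iron exporter ferroportin (0.765), Tnnc1, cardiac troponin C (0.789), and Apoc1, an apolipoprotein (0.796). Those nearest to S100a4 were the coagulation factor F5 (0.264), the arginase Arg2 (0.323), the receptor Notch1 (0.376), the histone gene H3c13 (0.385) and Ccdc124 (0.393). With 6 arrays in 2 ages, such nearness mostly reflects a similar difference between P14 and P1.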

How the data were processed

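Illumina mouse arrays of total RNA were read from the value table that the authors deposited, which holds linear probe intensities. Its 6 columns share the same sorted values to within 0.471%, so the deposited intensity values had been quantile-normalized between arrays; the lowest was 96.7, so background had not been subtracted. The normalization software was not given in the sources used here. A table of scanner signals with 24 columns named by chip position was not used, as no name matches a sample label.

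Log2 intensities were compared with limma 3.58.1 in R 4.3.3 (lmFit, eBayes, group only, two-sided). The floor was 3 SD above the most frequent log2 value; 18519 probes exceeded it on at least 3 arrays. Genes were named from the platform annotation (34885 of 45281 probes with 1 symbol, 18 with several, 10378 with none), and each gene was its probe with the highest mean. Background left in the values makes folds smaller than they would be, and the number of arrays limits the precision. The fit was tested on simulated data.

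Members and lists were chosen with earlier results of these data known. Named genes were all S100 genes, up to 4 genes past the threshold per list by size (or the 2 with the highest mean where none passed), markers below the floor, and the 5 genes nearest to S100a9 and to S100a4. Csf1r, Cd14, Tlr4, Ager, Anxa1, Anxa2, Cebpb, Chtop, Sprr2a1, the neighbours on the chromosome and the balance of S100a9 to S100a8 were picked with their values in view. The same holds for F13a1, Fn1, Adgre1, Spi1, Tnni3, Ttn, Ckm, Elane, Csf3r, Mmp9 and Bsg. The fit was repeated with other filters, other ways to choose probes, trended and robust variances, weighted arrays, the replicate number as a term, normexp, cyclic loess, and without each array.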

Additional observations from a re-analysis of the deposited data

How the results depend on the processing

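The calls of S100a1, S100a8, S100a9 and S100a10 kept direction and side of the threshold under all 9 alternatives with every array and without any 1 array, with log2 fold changes without single arrays of -1.26 to -0.99, -1.57 to -1.10, -2.19 to -1.79 and 0.52 to 0.66. S100a4 ranged from 0.45 to 0.76 and lost its call under the settings named above. S100a13 ranged from -0.13 to 0.10, changing sign without P14 replicate 1, and S100a11 ranged from -0.32 to -0.0080. The number of members called was 4 to 6 with all arrays and 4 to 5 without single arrays, and the difference between the calprotectin pair and the monocyte-associated members was -2.15 to -1.99 and -2.18 to -1.74. Over all genes the calls numbered 1043 to 1818 without single arrays, 534 to 879 of them higher and 509 to 939 lower in P14. With every kept probe tested by itself, 1580 probes were higher in P14, and 3153 of 18519 probes were called in all. After normexp background correction S100a9 was 4.27-fold lower in P14. Samples of the 2 ages share replicate numbers, but the correlations of same-numbered deviations over genes were 0.162, 0.0722 and 0.131, not all above 0.1, so the numbers were not taken as pairs, although each array correlated best with its own number. With the replicate block 2190 genes (1065 higher, 1125 lower) and 5 members were called, and the difference stayed at -1.99. With 3 arrays per age, small changes such as that of S100a13 have wide intervals.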
